A study of Mus musculus with 2 samples.

Results

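The myogenic regulatory and satellite cell factors were taken as 10 genes listed by symbol, a list drawn up with earlier results of these data known, Myod1, Myog, Myf5, Myf6, Pax7, Cdh15, Megf10, Vcam1, Ncam1 and Chrdl2, out of 15631 annotated genes with at least 1 read. They were measured in gastrocnemius, the calf muscle of mainly fast fibres, from male B6CASTF1/J pups, an F1 hybrid strain, at 10 days of age. The 1 group held 2 libraries of total RNA, each from 2 µg, with no treatment, mutation or control group. The labels number the libraries as biological replicates from separate biosamples and give both the same donor identifier. Replicate 1 held 1145490 mouse reads and replicate 2 held 941841, besides 26923 and 15688 reads of ERCC spike-in RNA. A long read follows 1 cDNA along its length, so a level is given as reads per 1000000 mouse reads (CPM) and is not divided by length. No molecular identifiers were used here, so repeat copies of a molecule were not checked. Where a library had no read of a gene, levels of up to 2.62 CPM (replicate 1) or 3.19 CPM (replicate 2) remain possible, taking 3 reads as the limit. The intervals given are Wilson intervals at 95%, which, like these limits, cover counting error only. The genes held 622 and 614 reads in all, or 543 and 652 CPM, and 9 of 10 genes had a read in each library, 8 of them in both.

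Skeletal muscle is built by the fusion of myoblasts, and it grows and is repaired by satellite cells, the stem cells that lie between a fibre and its basal lamina. Pax7 marks satellite cells. Myf5 and Myod1 commit cells to the muscle lineage, Myog drives the differentiation of myoblasts to fusing myocytes, and Myf6, also called MRF4, is the myogenic factor known for its level in mature fibres. These 4 factors are basic helix-loop-helix proteins that bind E-box DNA with a partner of the Tcf3 family. Cdh15 (M-cadherin), Vcam1 and Ncam1 are adhesion molecules, Megf10 is a receptor with EGF-like repeats that acts in satellite cell proliferation, and Chrdl2 is a secreted chordin-like antagonist of BMP signalling.

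The kinship of the 4 factors is visible in their coding sequence, which also bears on whether reads could be given to the wrong gene. The 60 coding bases of Myod1 that best matched stretches of Myog, Myf5 and Myf6 were sought in frame and without gaps. They and their matches lie in exon 1 of each gene. They are shown 5′ to 3′ from GENCODE M21, build GRCm38, with capitals at the 43 bases that all 4 share.
Myod1: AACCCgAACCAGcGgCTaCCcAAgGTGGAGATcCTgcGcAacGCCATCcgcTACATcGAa
Myog: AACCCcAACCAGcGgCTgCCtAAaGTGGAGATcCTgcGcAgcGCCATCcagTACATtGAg
Myf5: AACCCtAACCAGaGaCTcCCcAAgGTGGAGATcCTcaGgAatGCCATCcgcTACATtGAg
Myf6: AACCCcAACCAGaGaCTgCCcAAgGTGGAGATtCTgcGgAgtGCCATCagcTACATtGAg
These stretches are at chr7:46377087-46377146 on the plus strand for Myod1, chr1:134290386-134290445 on the plus strand for Myog, and chr10:107485536-107485595 and chr10:107494279-107494338 on the minus strand for Myf5 and Myf6. Pairs of them matched at 78.3% (Myog with Myf5) to 88.3% (Myf5 with Myf6) of positions. Over the whole transcripts the longest run of identical bases in a pair was 12 to 26 bases, short beside transcripts of 1263 to 2083 bases.

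Myog, at chr1:134289989-134292548, had the highest level of the 10 genes. It held 325 reads (284 CPM) in replicate 1 and 346 reads (367 CPM) in replicate 2, a mean of 326 ± 59.1 CPM (SD, n = 2). This placed it at rank 313, above 98.0% of detected genes, and at percentile 96.8 among genes whose main transcript was within 25% of its length. Myf6, at chr10:107492853-107494737, followed with 138 reads (120 CPM) and 145 reads (154 CPM), a mean of 137 ± 23.7 CPM. Myod1, at chr7:46376474-46379099, held 44 reads (38.4 CPM) and 53 reads (56.3 CPM), a mean of 47.3 ± 12.6 CPM. Myf5, at chr10:107482908-107486134, held only 1 read in replicate 1 and 4 in replicate 2 (0.873 and 4.25 CPM). All 4 factors were thus higher in replicate 2 as CPM, and each was apart from the next in this order in both libraries, with no overlap.

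The mix of the 4 factors was close in the 2 libraries. Of their 508 reads in replicate 1, Myog made up 64.0% (95% interval 59.7 to 68.0%), and of their 548 reads in replicate 2, 63.1% (59.0 to 67.1%). Myf6 made up 27.2% (23.5 to 31.2%) and 26.5% (22.9 to 30.3%). Myod1 made up 8.66% (6.52 to 11.4%) and 9.67% (7.47 to 12.4%). Myf5 made up 0.197% (0.0348 to 1.11%) and 0.730% (0.284 to 1.86%). For each factor the intervals of the libraries overlapped. By these shares, the late factors Myog and Myf6 together held most of the myogenic factor reads in both libraries, and the early factor Myf5 held the fewest.

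Among Pax7, Cdh15, Megf10, Vcam1, Ncam1 and Chrdl2, the level of Cdh15 was the highest in both libraries. Cdh15, at chr8:122847966-122867397, held 85 reads (74.2 CPM) in replicate 1 and 39 reads (41.4 CPM) in replicate 2, a mean of 57.8 ± 23.2 CPM. Vcam1, at chr3:116109949-116129688, held 12 and 16 reads (10.5 and 17.0 CPM). Ncam1, at chr9:49502136-49798925, held 11 and 6 reads (9.60 and 6.37 CPM), near the median of detected genes of 8.42 CPM. Megf10, at chr18:57133090-57297467, held 4 reads in each library (3.49 and 4.25 CPM).

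Pax7 and Chrdl2 were at the edge of detection. Pax7, at chr4:139737062-139833528, held 2 reads in replicate 1 and 0 in replicate 2. Both reads belong to a single-exon model of the genomic class listed with a length of 1 nt at position 139737062, the last base of the annotated gene, and no read joined exons of Pax7. Chrdl2, at chr7:100006172-100034728, held 0 reads in replicate 1 and 1 in replicate 2, a 4-exon fragment of 619 nt. With so few reads, neither gene could be shown to be absent or expressed at this depth. In bulk tissue, few satellite cells and little of an RNA per cell cannot be told apart.

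**Figure D1:**
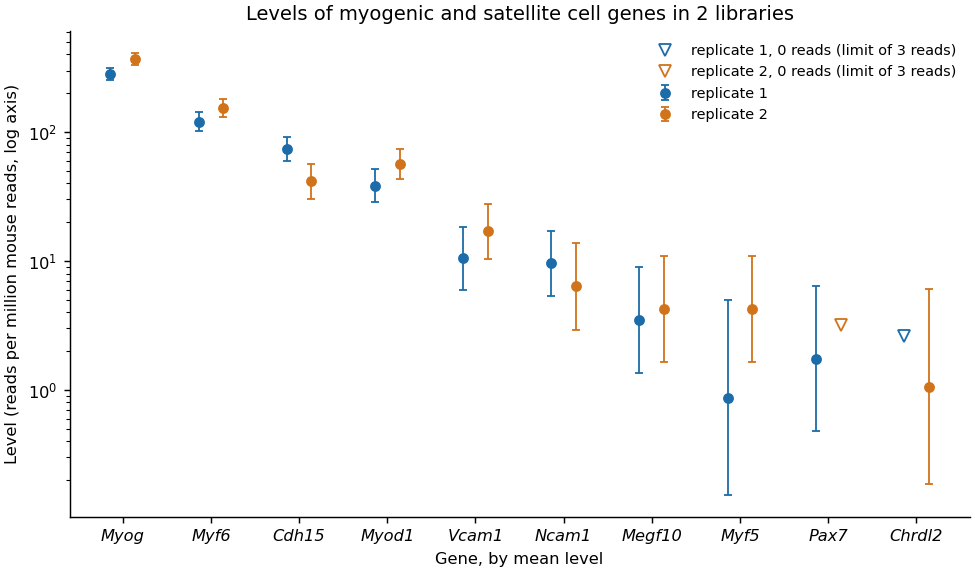
Level of each gene in reads per 1000000 mouse reads (log axis) in replicate 1 (blue) and replicate 2 (orange), with 95% Wilson intervals, ordered by mean level. Open triangles stand at the limit that 0 reads allow, 3 reads. Mean levels run from 326 CPM for Myog to 0.873 CPM for Pax7 and 0.531 CPM for Chrdl2, and the intervals widen as the reads fall.

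In the order of mean level, Myog, Myf6, Cdh15, Myod1, Vcam1, Ncam1, Megf10, Myf5, Pax7, Chrdl2, the lower gene's highest library lay below the upper gene's lowest library for 5 of 9 neighbouring pairs. Cdh15 and Myod1 overlapped: Cdh15 was the higher in replicate 1 and Myod1 the higher in replicate 2. Megf10, Myf5, Pax7 and Chrdl2 each overlapped with the next. Of the 10 genes, 5 were above the median detected gene, 2 above the percentile of 90, and 5 below the median. Among genes of like transcript length, the percentiles were 92.0 for Myf6, 85.4 for Cdh15, 79.3 for Myod1, 56.3 for Vcam1, 44.3 for Ncam1, 32.9 for Megf10 and 28.7 for Myf5. Among all detected genes Myf5 was at percentile 30.6, which was 7.19 in replicate 1 alone. Chrdl2 was at 10.7 among all detected genes and at 22.2 among genes of the length of its 619-nt fragment.

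The single comparison that the series allows is of replicate 1 with replicate 2. An exact two-sided conditional binomial test of reads per gene, with the Benjamini-Hochberg adjustment over 7516 genes with 20 or more reads, compares those libraries and not conditions. It measures counting error alone, so an adjusted p here says that the libraries differ by more than sampling and not that animals differ. The call required an adjusted p under 0.05 together with a 2-fold difference, which 2.75% of tested genes met (1.92% higher in replicate 1 and 0.838% higher in replicate 2). Of the 5 genes with enough reads, Myog, Myf6, Cdh15, Myod1 and Vcam1, 0 were called, and the other 5 were not tested.

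At any fold, 9.11% of tested genes had an adjusted p under 0.05, and Myog and Cdh15 were among them, in opposite directions. Myog was 1.29-fold higher in replicate 2 (adjusted p = 0.0139, exact binomial test). Cdh15 was 1.79-fold higher in replicate 1 (adjusted p = 0.0279, exact binomial test), a value that rose to 0.0515 with reads of annotated transcripts only and to 0.0574 with no read minimum. Myf6 was 1.28-fold higher in replicate 2 (adjusted p = 0.223), Myod1 1.46-fold (adjusted p = 0.289) and Vcam1 1.62-fold (adjusted p = 0.592), none of them past the threshold. The median absolute log2 ratio was 0.55 over these 5 genes and 0.34 over all tested genes.

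Transcript length moved with these ratios. Among tested genes of like transcript length, the median log2 ratio of replicate 1 over replicate 2 was -0.12 around Myog, -0.17 around Myf6 and -0.08 around Myod1, and 0.06 around Cdh15 and 0.09 around Vcam1. Myog had a log2 ratio of -0.37 and Cdh15 one of 0.84, each further from 0 than the median of its length class. Vcam1, at -0.70, lay on the other side of 0 from its class. The part of length in these differences was not tested. The pipeline document named in the labels is version 3.1 for the first library and 3.0 for the second, and its part cannot be told apart from that of the animal.

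**Figure D2:**
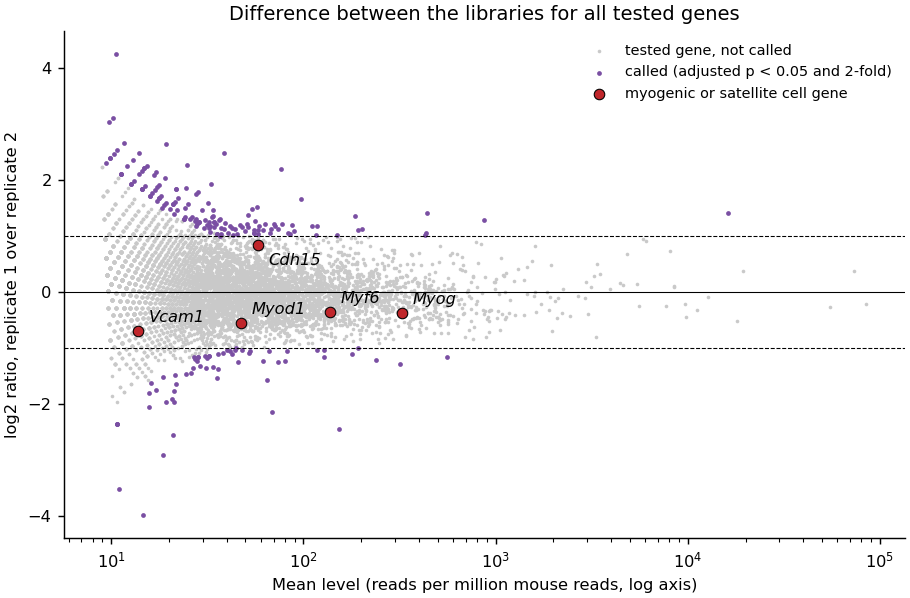
Log2 ratio of replicate 1 over replicate 2 against mean level (log axis) for the tested genes, grey where not called and purple where called, with dashed lines at 2-fold; 1 tested gene with 0 reads in 1 library is not drawn. The 5 tested myogenic and satellite cell genes (red) lie inside the 2-fold lines, Cdh15 above 0 and the other 4 below.

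Long reads also show which transcript each read comes from. The authors' classes separate annotated transcripts, incomplete splice matches (part of an annotated chain of introns), new combinations of annotated splice sites, models with a new splice site, and genomic models. These classes were kept as given. Recomputed from the introns, 3 of the 84 models of these genes, counted in each library, had a different class. All were Ncam1 models given as new combinations that hold a new splice site. Annotated transcripts took 90.5% (88.0 to 92.6%) of the reads of the 10 genes in replicate 1 and 94.1% (92.0 to 95.7%) in replicate 2, against 70.9% and 74.9% of all mouse reads. Incomplete splice matches took 6.91% and 2.77%. There were 65 distinct models of these genes, of which 19 were found in both libraries, 40 rested on 1 read and 8 were annotated transcripts.

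The share of annotated reads differed widely among the genes. It was 97.9% of 671 reads for Myog (96.5 to 98.7%), 96.5% of 283 for Myf6 (93.6 to 98.1%) and 95.9% of 97 for Myod1 (89.9 to 98.4%). It was 74.2% of 124 for Cdh15 (65.8 to 81.1%), 71.4% of 28 for Vcam1 (52.9 to 84.7%) and 37.5% of 8 for Megf10 (13.7 to 69.4%). For Ncam1 it was 0 of 17 reads, which allows a share of up to 17.6%. Length moved with this share over all genes with 10 or more reads: its median was 94.1% where the longest annotated transcript was under 1500 nt, 86.7% from 1500 to 2500 nt, 80.0% from 2500 to 4000 nt and 58.3% above. Myog, Myf6 and Myod1, whose transcripts are 1495, 1263 and 1861 nt, were above the median of their length class, and Cdh15, at 3251 nt, was below it. The part of length in the differences among these genes was not tested.

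**Figure D3:**
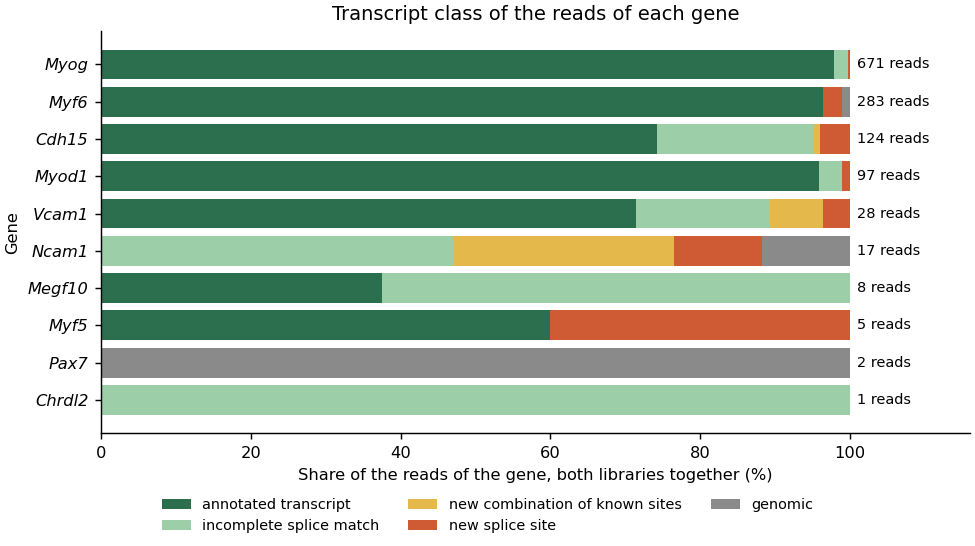
Share of each gene's reads, both libraries together, by the authors' transcript class, with the number of reads at the right. Annotated transcripts (dark green) fill nearly the whole bar of Myog, Myf6 and Myod1, while Ncam1 has none and Pax7 has only genomic reads.

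Each of the 3 most read factors was made as a single main transcript of 3 exons. Myog-201 held 315 of 325 reads (96.9%) and 342 of 346 (98.8%), and a single-exon fragment of 875 nt, which is exon 3, held 8 and 3 reads. Myf6-201 held 135 of 138 reads (97.8%) and 138 of 145 (95.2%). Myod1-201 held 40 of 44 reads (90.9%) and 53 of 53 (100%). Transcript model shares were compared between the libraries with Fisher's exact test, for genes that had at least 20 reads in each, with a call at an adjusted p under 0.05 and 10 percentage points, which 1.11% of 14263 models met. Of 6 models of Myog, Myf6, Myod1 and Cdh15 in this test, 0 were called. The lowest p was that of Myod1-201 (unadjusted p = 0.0392, adjusted p = 0.439, Fisher's exact test).

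The unannotated variants of the factors were rare. Myf6 had 1 read in replicate 1 and 3 in replicate 2 in which exon 3 begins 3 nt later than annotated, the most read of its variants. The junction of exons 2 and 3 is given in both forms, 5′ to 3′, with exon 3 in capitals; it spans chr10:107493811-107493840 and, in the annotated form, chr10:107493443-107493472, on the minus strand.
Myf6 annotated junction: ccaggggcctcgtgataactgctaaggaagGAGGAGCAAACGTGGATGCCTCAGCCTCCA
Myf6 junction 3 nt later: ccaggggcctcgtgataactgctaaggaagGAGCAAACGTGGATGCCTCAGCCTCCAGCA
Over all genes, models with a new splice site took 4.75% of reads in replicate 1 and 8.01% in replicate 2. That class as a whole was thus also the larger in the second library, and its part in these variants was not tested. New combinations of annotated splice sites went the other way, at 12.1% and 5.89%. Unspliced reads across the whole of Myf6, of 2374 nt, numbered 2 and 1. For Myod1, 1 read of 2186 nt kept the second intron. Myf5-201 held the 1 read of replicate 1 and 2 of the 4 in replicate 2. The other 2 reads of Myf5, each a model of 2815 nt, began upstream of the annotated start, at positions 107486980 and 107488426, and had exon 1 lengthened from 704 to 1297 nt (chr10:107485431-107486727) across the annotated start.

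Cdh15 was read mostly as 1 annotated transcript and a ladder of shortened copies of it. Cdh15-201, of 14 exons and 3251 nt, held 64 of 85 reads (75.3%) and 28 of 39 (71.8%). The next model lacked exon 1 and held 6 and 0 reads, and further models of 11, 10, 9, 8, 7, 6, 4 and 3 exons each began at a later exon and kept the 3′ end. Outside this ladder, models with a new splice site held 3 and 2 reads, and a new combination of annotated splice sites 0 and 1. An internal fragment of 2 exons, with 1 read in replicate 1, lacked the 3′ end. Reads over exon 1 numbered 67 and 30, and reads over exon 14, the last, 84 and 39. The first intron, of 7972 nt, was spliced in 65 of 85 and 30 of 39 reads and the last in 84 and 38. The rise along the gene was present in both libraries. Whether the shorter models are molecules of the cell or incomplete copies was not tested.

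**Figure D4:**
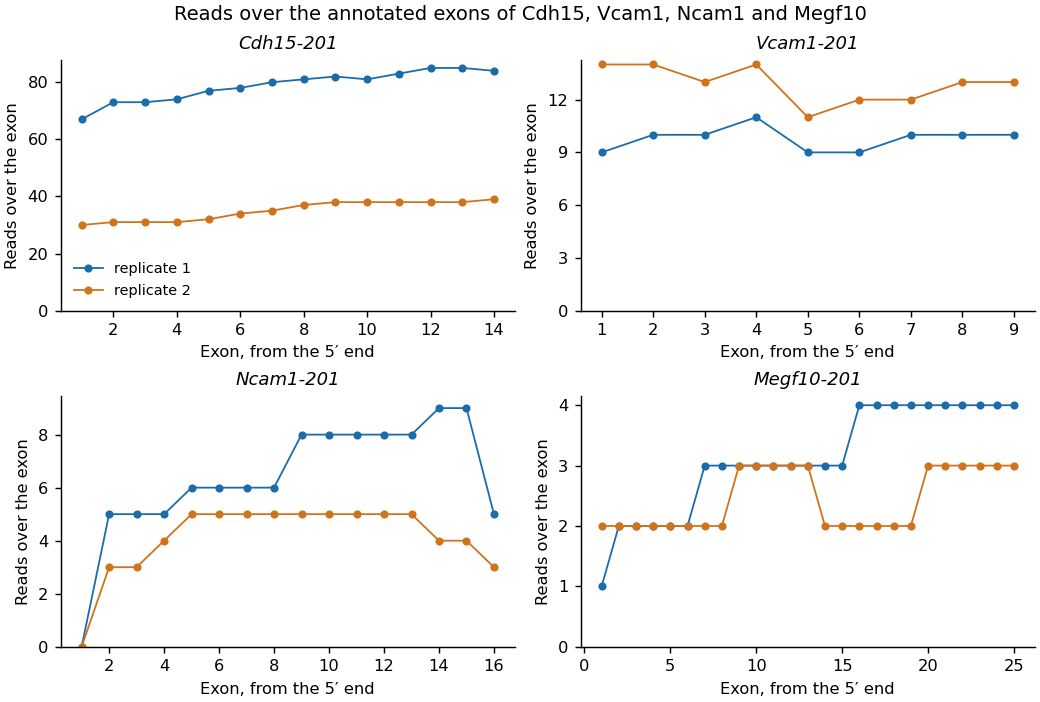
Number of reads over each exon of the annotated transcript, from the 5′ end (left) to the 3′ end, for Cdh15-201, Vcam1-201, Ncam1-201 and Megf10-201 in replicate 1 (blue) and replicate 2 (orange). Cdh15 rises from 67 to 84 and from 30 to 39 reads, and Ncam1 has 0 reads over exon 1 and 5 and 3 over exon 2.

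Megf10-201, annotated with 25 exons and 7514 nt, was the transcript of 1 read in replicate 1 and 2 in replicate 2. The other 5 reads were fragments of 5 to 24 exons, and the last exon, of 3624 nt, was reached by 4 and 3 reads. Megf10-201 was the longest annotated transcript among the 10 genes whose whole chain of introns was read. Whether those reads reached both annotated ends was not tested.

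For Ncam1, no read contained the first intron, of 228777 nt, or exon 1, and the longest fragments began at exon 2 with 15 or 17 exons. Ncam1 proteins differ by their ends: an end anchored in the membrane by glycosylphosphatidylinositol (GPI), or a membrane-spanning end with a cytoplasmic tail. Both were found. The GPI last exon was used by 4 spliced reads in replicate 1 and 3 in replicate 2, and the transmembrane last exon by 5 and 1. The GPI form took 7 of these 13 spliced reads, 53.8% with an interval of 29.1 to 76.8%. Single-exon reads, left out of this share, numbered 1 and 0 on the GPI exon and 1 and 1 near the transmembrane end. Also left out was 1 spliced read of replicate 2 that ended at position 49531276, upstream of both last exons. The 2 choices are shown from the shared 178-nt exon (lower case, chr9:49520035-49520064) to the first 30 bases of the next exon (capitals), on the minus strand; the GPI exon starts at chr9:49517553-49517582 and the transmembrane path at chr9:49509883-49509912.
Ncam1 to GPI-anchored end: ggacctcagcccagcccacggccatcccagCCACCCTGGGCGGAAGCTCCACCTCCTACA
Ncam1 to transmembrane end: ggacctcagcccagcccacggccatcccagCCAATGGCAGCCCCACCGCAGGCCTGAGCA
The 801-nt exon of the long cytoplasmic tail, known from neurons, was in 0 of the 6 reads that span it.

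The small optional exons of Ncam1 were skipped by every read that spans them. The VASE exon of 30 nt, known from mature neurons, was in 0 of 11 reads (6 and 5), which allows up to 27.3%. The 3 exons of the muscle-specific domain, of 15, 48 and 42 nt, were in 0 of 13 reads (8 and 5), which allows up to 23.1%. They are shown in capitals with 15 bases on either side from the annotated transcripts Ncam1-205 and Ncam1-206, since they are the sequences whose absence was read; they lie at chr9:49550540-49550569, chr9:49541888-49541902, chr9:49536990-49537037 and chr9:49535209-49535250, on the minus strand.
VASE: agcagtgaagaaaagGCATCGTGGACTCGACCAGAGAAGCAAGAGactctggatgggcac
MSD 15: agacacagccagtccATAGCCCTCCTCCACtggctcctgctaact
MSD 48: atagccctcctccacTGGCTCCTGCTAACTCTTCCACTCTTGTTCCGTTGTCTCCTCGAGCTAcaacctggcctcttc
MSD 42: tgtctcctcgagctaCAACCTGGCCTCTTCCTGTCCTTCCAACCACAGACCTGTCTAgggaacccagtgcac
At the site where the muscle-specific exons would be spliced in, 6 and 2 reads used the annotated donor of the 132-nt exon, and 2 and 3 reads a donor 4 nt later that is in no annotated transcript. Further on, 8 and 2 reads had the 178-nt exon and 1 and 2 reads the annotated 181-nt form, whose acceptor is 3 nt earlier.
Ncam1 125-nt to 178-nt exon: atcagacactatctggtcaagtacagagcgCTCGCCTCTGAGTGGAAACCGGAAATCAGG
Ncam1 125-nt to 181-nt exon: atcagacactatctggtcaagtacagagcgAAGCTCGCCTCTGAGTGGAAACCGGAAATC
The upstream exon is in lower case (chr9:49523522-49523551), and the capitals start at position 49520212 in the shorter form and 49520215 in the longer. The intervals of the libraries overlapped for both choices (11.1% and 50% for the longer exon, 25% and 60% for the later donor).

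Vcam1 has immunoglobulin-like domains encoded by exons that repeat: exons 2, 3 and 4 have the same lengths as exons 5, 6 and 7 (276, 321 and 267 nt) and matched them at 64.9%, 63.9% and 64.8% of bases. Vcam1-201, of 9 exons, held 6 of 12 and 10 of 16 reads, and Vcam1-203, of 5 exons, held 1 and 3 reads. Vcam1-203 stops after exon 4 and encodes the short form of the protein, known in mice to be GPI-anchored. Its last exon was used by 2 of 12 and 3 of 16 spliced reads, 17.9% over both (7.88 to 35.6%), and the full-length last exon by 10 and 13. The paths out of exon 4 (lower case, chr3:116124383-116124412, minus strand) lead to chr3:116121044-116121073 in the full-length form and to chr3:116123764-116123793 in the short form.
Vcam1 exon 4 to full-length form: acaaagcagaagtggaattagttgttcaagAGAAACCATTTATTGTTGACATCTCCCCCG
Vcam1 exon 4 to short form: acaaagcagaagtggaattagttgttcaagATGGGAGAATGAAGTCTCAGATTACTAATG
Exon 3 of Vcam1, of 321 nt at chr3:116125955-116126275, was the only internal exon of the 10 genes with 20 or more spanning reads over both libraries and an inclusion of 5% to 95%. It was contained in 8 of 9 reads in replicate 1 (88.9%) and 13 of 14 in replicate 2 (92.9%), 91.3% over both (73.2 to 97.6%). A further 1 read of replicate 1 held it in a 325-nt form (chr3:116125951-116126275) and was counted neither way. The same 8-exon model without exon 3, of 2917 nt, had 1 read in each library. The skip joins exon 2 (lower case, chr3:116128533-116128562) to exon 4 (chr3:116124620-116124649) in place of exon 3 (chr3:116126246-116126275).
Vcam1 exon 2 to exon 3: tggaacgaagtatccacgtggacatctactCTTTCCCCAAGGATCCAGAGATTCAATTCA
Vcam1 exon 2 to exon 4: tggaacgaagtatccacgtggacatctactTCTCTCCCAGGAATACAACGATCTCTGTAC
No exon of the 10 genes had 20 spanning reads in each library with such an inclusion, so 0 entered the Fisher's exact test of inclusion, in which 0.175% of 1711 exons were called.

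The genes that act with these factors were present at graded levels. Of 15 partners and inhibitors of the myogenic factors, 15 were detected, with a median of 21.5 CPM against 8.42 CPM over all detected genes. The E-protein partners Tcf3 (96.0 ± 11.1 CPM) and Tcf4 (67.8 ± 2.84 CPM) and the repressor Bhlhe40 (77.9 ± 9.58 CPM) were the highest, and Tcf3 was thus below Myog and Myf6 and above Myod1 in both libraries. Of 20 upstream and co-acting factors, 19 were detected, with a median of 22.4 CPM over all 20. Mef2c (242 ± 39.1 CPM) and Mef2d (124 ± 27.7 CPM), which act with the myogenic factors on muscle promoters, and Smarcd3 (234 ± 1.10 CPM), the chromatin remodelling subunit also called Baf60c, were the highest. Pax3, the relative of Pax7 that acts in the embryo, had 0 reads in both. No gene of these lists was called between the libraries, with 10 and 13 tested.

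Of 22 satellite cell surface and signalling genes, 22 had a read in at least 1 library and 21 in each, with a median of 16.4 CPM. Some were at the edge of detection: Cxcr4 held 1 and 0 reads, Tenm4 0 and 2, and Met 1 and 2. The highest, the integrin subunit Itgb1 (342 ± 50.3 CPM), the caveolar protein Cav1 (276 ± 24.5 CPM) and the sialomucin Cd34 (197 ± 1.23 CPM), are also made by other cells of muscle. None of the 14 tested was called. Of 14 fusion and differentiation genes, 14 were detected, with a median of 66.5 CPM. Creatine kinase Ckm (55115 ± 7558 CPM), desmin Des (3501 ± 533 CPM) and the cell cycle inhibitor Cdkn1c (2114 ± 123 CPM) were the highest. Myh3, the embryonic myosin heavy chain, was the 1 gene called of 11 tested, at 121 and 53.1 CPM, 2.29-fold higher in replicate 1 (adjusted p = 7.98e-06, exact binomial test). Of 10 proliferation genes, 10 were detected, with a median of 15.7 CPM; Mcm2 (34.4 ± 8.12 CPM), Pcna (22.6 ± 1.08 CPM) and Ccna2 (19.2 ± 6.16 CPM), of DNA replication and the cell cycle, were the highest, and none of 8 tested was called.

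Markers of the cell types of muscle were also measured, and some of them are genes already described above. The 6 muscle fibre markers were all detected, as the tissue label implies, and summed to 174456 and 186500 CPM. The 6 satellite cell markers summed to 137 and 117 CPM, of which Cdh15 and the lectin Chodl (59.4 ± 6.16 CPM) made up most. Pax7, Myf5, Cdh15 and Megf10 are both markers in this sum and members of the gene set studied here. The sum therefore partly restates their levels and is not a separate measure of satellite cells. The only other markers in it were Chodl and Calcr, and Calcr held 2 and 3 reads. Endothelial markers, 7 of 7 detected, summed to 237 and 205 CPM, and Schwann cell and nerve markers, 6 of 6, to 1711 and 1308 CPM. Vcam1 is also made by endothelial cells and Ncam1 by Schwann cells and nerve, and the part of these cells in their reads was not tested. Pericyte and smooth muscle markers summed to 670 and 700 CPM, fibroblast and tendon markers to 18946 and 11310 CPM, macrophage and immune markers to 95.2 and 77.5 CPM, and red cell markers to 397 and 833 CPM. Of 6 muscle fibre markers tested, Myh4 and Ttn were called higher in replicate 1, as was Myh11 of 6 pericyte and smooth muscle markers. Of 4 red cell markers tested, Hba-a1 and Hbb-bt were called higher in replicate 2. No marker of the other cell types was called, beside 2.75% of all tested genes.

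The strand opposite to Myf5, Myod1 and Myf6 also held reads, while that opposite to Myog held 0 in both libraries. Over the 3′ untranslated part of Myf5, a single-exon model of 888 nt on the plus strand, at chr10:107482908-107483795, held 8 reads in each library, more than the 1 and 4 reads of Myf5 itself; it begins at the base where the annotated Myf5 ends. Opposite to Myod1, single-exon models on the minus strand that begin at position 46377299, the last base of its exon 1, held 3 reads in each library. Myf5 and Myf6 lie 6718 nt apart on the same strand. Beside the start of Myf6, 6 spliced reads, 2 in replicate 1 and 4 in replicate 2, ran the other way along the plus strand. They fell into 6 different models, all with the same end of their first exon, at position 107495326, 589 nt upstream of the annotated start of Myf6. They spanned 21189 to 164787 nt, and 5 of the 6 reached into the reverse strand of Ptprq (chr10:107517049-107720051, minus strand), which itself had 1 read in each library. Of 19 later exons, counted as the same where both ends were identical, 3 were found in both libraries, at chr10:107582378-107582464, chr10:107618349-107618540 and chr10:107653140-107653334. An exon that starts at position 107659302 was also in both, with a different end in each of its 3 reads.

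**Figure D5:**
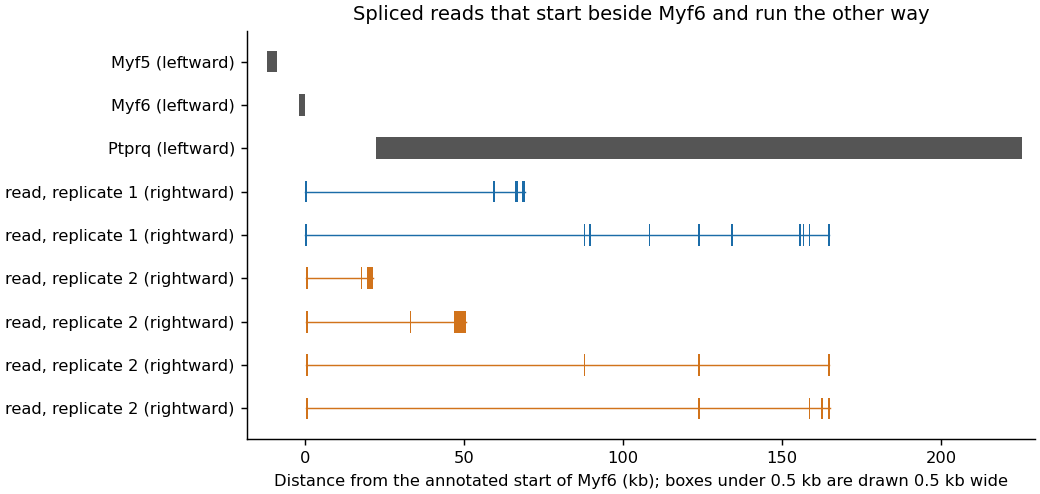
Position, in kb from the annotated start of Myf6, of Myf5, Myf6 and Ptprq (grey, transcribed leftward) and of the 6 spliced reads of the opposite strand in replicate 1 (blue) and replicate 2 (orange), with boxes for exons and lines for introns. All 6 begin beside the Myf6 start and run rightward, 3 of them for 164398 to 164787 nt.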

How the data were processed

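Long-read RNA sequencing was measured in 2 libraries of 1 group. The authors deposited raw counts of reads per transcript model, listing models with 1 or more reads, without normalization. Per the labels and file headers, the build was mm10, and the deposited annotations carry TALON attributes and GENCODE M21 gene names; for the aligner and tool versions, the sources used here give none. All 34351 annotated models listed had the exons of GENCODE M21.

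Here counts were summed per gene and per model, with spike-ins left out. The members and gene lists were chosen with earlier results of these data known. Related genes were named if among the 3 highest of a list or called. The exact binomial test took genes with 20 or more reads in sum over the libraries, and the share test models with 5 or more. An inclusion counted reads with exons on both sides of an exon that held it with both ends identical or skipped it. Models within 1000 nt of a member on the other strand were listed after the data were seen. The 10 genes include 5 with too few reads for any test. Related lists were partners and inhibitors, upstream factors, surface and signalling genes, fusion and differentiation genes, and proliferation genes. Python 3.11.15, numpy 2.4.6, scipy 1.17.1, pandas 2.3.3 and matplotlib 3.10.9 were used, and, in R 4.3.3, DESeq2 1.42.0 and edgeR 4.0.16 gave alternative scalings, which moved log2 ratios by -0.0153 and -0.0056. The tests were tested on simulated data. Alternatives changed the scaling, read minimum, fold limit, read classes and libraries.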

Additional observations from a re-analysis of the deposited data

Results flagged for a closer look

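Reads on the strand opposite to 3 of the genes exceeded the limit that a count of 0 allows, 3 reads in a library, and no comparison used them. Opposite to Myf5 there were 8 reads in replicate 1 and 8 in replicate 2, all in the same 888-nt model. Within 1000 nt of Myf6 there were 5 in replicate 2, of which 4 were the spliced reads that run towards Ptprq, against 3 in replicate 1. Opposite to Ncam1 there were 6 reads in replicate 1, spread over 4 single-exon models along the gene, against 1 in replicate 2. Whether they are transcripts of their own was not tested.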

How the results depend on the processing

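In the main test 5 of the 10 genes entered and 0 were called, beside 2.75% of all tested genes. With 5 genes tested, 0 calls do not set them apart from other genes. Of the 10 genes, 0 were called under TMM, DESeq2 and mitochondria-free scaling. The same held for read minima of 5, 100 and none, annotated reads only and no genomic models. At a minimum of 100 reads only Myog, Myf6 and Cdh15 were tested. With no fold limit 2 were called, Myog and Cdh15, beside 9.11% of all tested genes. All 43 alternative log2 ratios of single genes kept their direction, but most settings could hardly reverse one. The read minimum and the fold limit do not enter a ratio, so it stayed the same under them. TMM and DESeq2 scaling moved each ratio by only -0.0056 and -0.0153. The count of all genes called was 207, and it was 59 at a minimum of 100 reads and 685 with no fold limit. Transcript models called fell from 158 to 9 without incomplete and genomic models, and to 9 with annotated transcripts only; 0 models of the 10 genes were called in any of these. No exon of the 10 genes met both the spanning-read and the inclusion limits under any setting run, so exon calls say nothing about them. Their summed level ran from 543 to 652 CPM over single libraries. Counting annotated transcripts only, Ncam1 had 0 reads and Megf10 had 3. No paired analysis was possible because both libraries form 1 group. Depth limits Pax7, Chrdl2, Myf5 and Megf10, at 1 to 8 reads each over both libraries, and every share in Ncam1 and Vcam1.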
